A study of Homo sapiens with 33 samples.

Results

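The clusters described here are the stretches of RNA that hnRNPA1 touched in SH-SY5Y cells, mapped by infrared crosslinking and immunoprecipitation (irCLIP). The authors deposited 1 list of significant clusters for cells with wild-type (WT) hnRNPA1 and 1 for cells with hnRNPA1 D262V, and all clusters of both lists were taken. A cluster counted as shared when a cluster of the other list overlapped it by at least 1 nt on the same strand, and otherwise as WT only or D262V only. After repeated lines were removed the WT list held 564935 clusters and the D262V list 522411. Together these were 1087346 of the 2075166 irCLIP clusters of the series. The other clusters came from Flp-In T-REx 293 cells, a kidney-derived line in which a tetracycline-induced transgene supplied WT or D262V hnRNPA1. SH-SY5Y is a human neuroblastoma line of noradrenergic character. Each list pooled 3 samples, so the lists carry no replicate error, and differences between them are given as counts without a test. For the irCLIP cells the labels state no zygosity, no clone and no differentiation. RNA values come from 6 other libraries, 3 of undifferentiated WT and 3 of undifferentiated homozygous D262V SH-SY5Y cells.

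hnRNPA1 is an abundant nuclear RNA-binding protein that shuttles to the cytoplasm. Its RNA recognition motifs favour short sites with UAG at their core, and bound near an exon it often represses the use of that exon. The D262V substitution lies in its C-terminal low complexity domain and has been linked to multisystem proteinopathy and amyotrophic lateral sclerosis (ALS).

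Primary microRNA hairpins are a known class of hnRNPA1 substrates, and they are shown here because their sequences could be read without a genome. Of 1562 human hairpins in the RefSeq table (GRCh38.p14), 56 held a cluster in both lists, 25 only in the WT list and 14 only in the D262V list. The trinucleotide UAG, searched on the RNA strand and counting overlapping copies, was present in 39 of the 56 hairpins of both lists (69.6%), in 18 of 25 (72.0%) and 9 of 14 (64.3%) of the others, and in 874 of all 1562 (56.0%). UAGG, which contains UAG, was present in 19 of the 56 (33.9%) and in 332 of all hairpins (21.3%). A match is a description of letters and does not mark a binding site. Hairpins with a cluster had a median length of 84 nt in both lists, 79 nt in the WT list only and 83.5 nt in the D262V list only, against 80 nt for all. The 4 hairpins below had clusters in both lists and are shown 5′ to 3′ with UAG in capitals.
MIR1248: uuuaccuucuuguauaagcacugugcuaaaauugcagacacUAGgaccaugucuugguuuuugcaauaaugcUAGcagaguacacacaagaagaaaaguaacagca
MIR10B: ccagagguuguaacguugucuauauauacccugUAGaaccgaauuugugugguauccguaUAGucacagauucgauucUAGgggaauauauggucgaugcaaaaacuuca
MIR98: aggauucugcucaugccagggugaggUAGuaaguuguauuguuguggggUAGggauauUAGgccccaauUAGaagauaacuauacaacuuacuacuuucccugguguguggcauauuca
MIR17: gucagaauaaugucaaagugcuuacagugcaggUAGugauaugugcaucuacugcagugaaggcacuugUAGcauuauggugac

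MIR1248 (chr3:186786672-186786777, plus strand) carried the strongest of these clusters, with a score of 3263 in the WT list and 3934 in the D262V list. MIR10B (chr2:176150303-176150412, plus strand) had scores of 635 and 417. MIR98 (chrX:53556223-53556341, minus strand), of the let-7 family, had 141 and 70, and MIR17 (chr13:91350605-91350688, plus strand), of the growth-promoting 17-92 cluster, 29 and 63. The score is the authors' whole number per cluster, without a stated unit, and lists may differ in scale, so no ratio between lists was formed.

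The next 4 hairpins held a cluster in 1 list only, the first pair in the WT list and the second pair in the D262V list.
MIR6805: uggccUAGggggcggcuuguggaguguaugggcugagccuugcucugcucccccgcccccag
MIR490: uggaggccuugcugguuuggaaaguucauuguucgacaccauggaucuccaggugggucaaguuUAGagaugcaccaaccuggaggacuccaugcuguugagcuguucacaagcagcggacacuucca
MIRLET7F1: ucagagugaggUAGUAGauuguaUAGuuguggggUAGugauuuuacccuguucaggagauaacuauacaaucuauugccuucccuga
MIR19B1: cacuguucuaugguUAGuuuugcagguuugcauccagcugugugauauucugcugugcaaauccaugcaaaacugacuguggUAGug

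MIR6805 (chr19:55388181-55388242, plus strand) had a WT score of 255, and MIR490 (chr7:136903167-136903294, plus strand), which lies within the muscarinic receptor gene CHRM2, 39. MIRLET7F1 (chr9:94176347-94176433, plus strand) had a D262V score of 218 and MIR19B1 (chr13:91351192-91351278, plus strand) of 12. All 4 were without a cluster in the other SH-SY5Y list. MIR6805, MIRLET7F1 and MIR19B1 had a cluster in at least 1 Flp-In list, and MIR490 in neither.

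The WT and D262V lists largely covered the same RNA. Of the WT clusters, 478109 (84.6%) were shared with D262V, and of the D262V clusters, 465559 (89.1%) were shared with WT. The remainder were 86826 WT-only and 56852 D262V-only clusters. Only 0.0908% of WT and 0.0967% of D262V clusters met a cluster of the other list on the opposite strand. The WT list covered 73.7 Mb and the D262V list 67.7 Mb, of which 54.2 Mb lay in both (73.4% of the WT and 80.0% of the D262V coverage). The Flp-In pair overlapped at 82.8% of its WT and 87.4% of its D262V clusters. Between the cell lines sharing was lower: 67.6% of SH-SY5Y WT clusters were found in the Flp-In WT list, and 63.3% of SH-SY5Y D262V clusters in the Flp-In D262V list. The lines also differ in how hnRNPA1 was supplied, and the effect of the line and of the transgene cannot be told apart.

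Unshared clusters had lower median scores and widths than shared ones. The median score was 25 in WT-only clusters (quartiles 16 and 41) against 65 in shared WT clusters (32 and 139). It was 22 in D262V-only clusters (15 and 35) against 60 in shared D262V clusters (30 and 128). Median widths were 121 and 116 nt for WT-only and D262V-only clusters, against 154 and 149 nt for shared ones. No cluster was wider than 199 nt, the width of 31.0% of WT and 28.5% of D262V clusters, so medians of wide clusters are bounded from above. Sharing was lowest at scores of 11 to 20, where 55.7% of WT and 65.4% of D262V clusters were shared. At scores of 501 to 1000 it reached 99.2% and 99.8%, and of the clusters scored at least 1000 only 20 in WT and 4 in D262V were unshared.

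**Figure D1:**
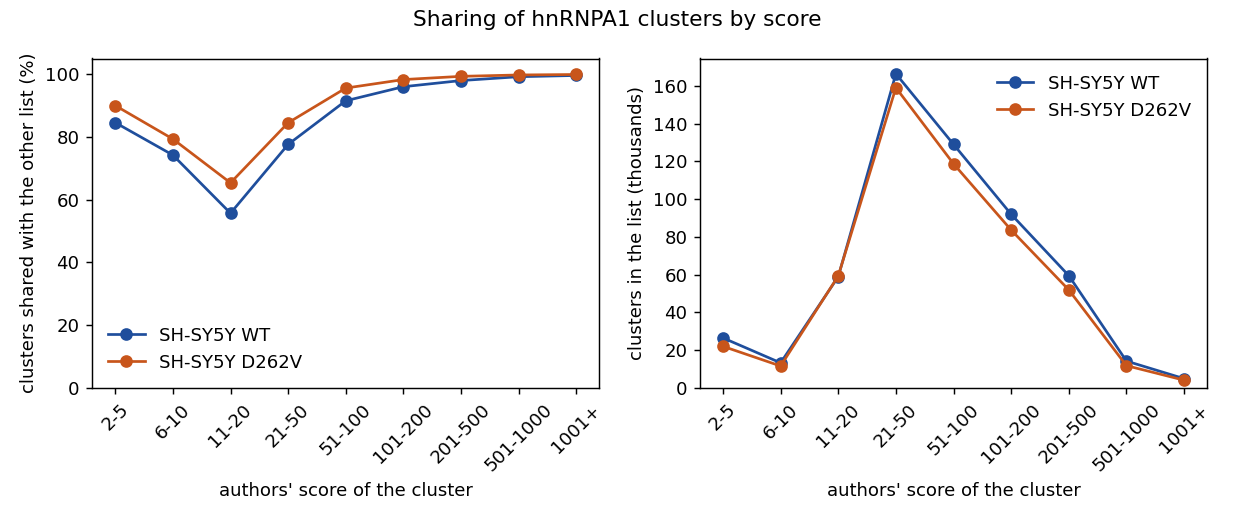
Percent of clusters shared with the other list (left) and number of clusters (right) by the authors' score, for the SH-SY5Y WT and D262V lists. Each point is 1 score class of 1 list; sharing is lowest at scores of 11 to 20 (55.7% and 65.4%) and above 99% from 501 upward.

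Clusters with a score of 2 to 5 were shared more often (84.6% and 90.0%) than those of 11 to 20. They had a median width of 27 nt in both lists. Over the 478109 WT clusters paired with the D262V cluster of largest overlap, scores had a Spearman correlation of 0.68 and log10 scores a Pearson correlation of 0.58. These points share genes and RNA abundance. The centres of paired clusters lay a median of 18 nt apart.

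WT-only and D262V-only clusters differed in how far they lay from the other list. The median distance to the nearest cluster of the other list was 1281 nt for WT-only and 467 nt for D262V-only clusters. Distances over 10000 nt were found for 40.8% of WT-only and 18.8% of D262V-only clusters. Genes with no cluster in the other list held 39.2% of WT-only and 18.4% of D262V-only clusters. How far these whole-gene absences make up the distances was not tested. In the Flp-In lists, 48.8% of WT-only and 40.2% of D262V-only clusters had an overlapping cluster, against 75.01% and 74.9% of the shared ones. Within protein-coding genes, 3.62% of D262V-only clusters lay in the last 2000 nt of the gene, compared with 2.31% of WT-only clusters and 2.05% and 2.07% of shared WT and D262V clusters. The first 2000 nt held 1.80% and 1.94% of D262V-only and WT-only clusters.

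Over all clusters, most genes past a 2-fold difference were absent from 1 list. A gene entered with at least 20 clusters over both lists, which 7113 genes had, and its cluster number was scaled to 10000 clusters of the list. By a fold of 2, 283 genes (3.98%) were lower and 103 (1.45%) higher in D262V, 5.43% in all. Of the 283 lower genes, 272 had no cluster at all in the D262V list (3.82% of 7113), and of the 103 higher genes, 98 had none in the WT list (1.38%). Among the 100000 highest scored clusters of each list this did not hold: 16 of 100 lower and 3 of 57 higher genes had no cluster in the other list. The other 6743 genes were in both lists. Of these 98.8% had cluster shares within 1.5-fold of each other, with a median ratio of D262V over WT of 1.05 (quartiles 0.978 and 1.13). Cluster number followed gene length closely (Pearson r = 0.93 between logs, over genes in both lists), at a median of 0.900 WT clusters per kb.

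**Figure D2:**
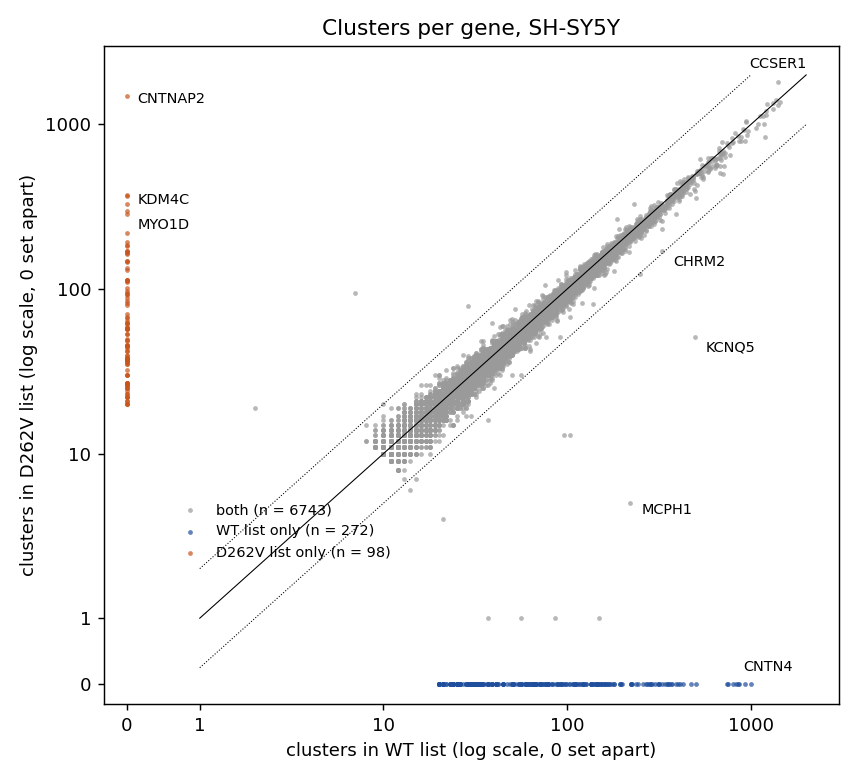
Clusters per gene in the SH-SY5Y WT list (x axis) and D262V list (y axis), log scales with 0 set apart, for the 7113 genes with at least 20 clusters; the solid line marks equal numbers and the dotted lines a 2-fold difference in number. Of the 6743 genes of both lists, 98.8% have cluster shares within 1.5-fold of each other, and 16 pass the 2-fold limit. The 272 genes of the WT list only and 98 of the D262V list only lie on the axes.

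Genes held by the WT list only had weaker and somewhat sparser clusters than genes of both lists. The median over genes of the gene's median score was 26, against 52 in WT for genes of both, and the median densities were 0.746 and 0.900 clusters per kb. For genes of the D262V list only the values, from the D262V list, were 24.2 and 0.770. Within the D262V list, clusters in genes of that list only had a median score of 27. Shared clusters in genes of both lists had 60 there, and unshared ones 22. A Flp-In list held 138 of the 272 WT-list genes (50.7%), 42 of the 98 D262V-list genes (42.9%) and 86.6% of genes in both. The Flp-In pair was similar: 344 of its 7011 genes (4.91%) were in 1 list only, against 5.20% of the SH-SY5Y genes. Whether a filter in the authors' cluster calling set these absences was not tested. Genes missing from the D262V list held 34077 WT clusters, which made up 39.2% of all WT-only clusters. Genes missing from the WT list held 10479, or 18.4% of D262V-only clusters. Within genes of both lists, 90.1% of WT and 91.0% of D262V clusters were shared.

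The 8 genes with the lowest ratios were long genes of the WT list only. CNTN4, a contactin of axons, had 997 clusters in the WT list and 0 in the D262V list. With 3 clusters taken in place of 0, its share of the list was 307-fold higher in WT. This fold describes the lists and not binding, since a gene at 0 may have fallen below the authors' limit. NRG1 and NRG3, neuregulin ligands of ERBB receptors, had 935 and 848 clusters in WT and 0 in D262V. GRM7, a metabotropic glutamate receptor, had 858 and 0, and its clusters at chr3:6898191-6898389 and chr3:6898301-6898412 were the highest scored of all WT-only clusters, at 2637 and 2630. EPHA6, an ephrin receptor, had 832 and 0, ADGRL3 (latrophilin 3, an adhesion receptor) 800 and 0, and NEGR1, a neuronal adhesion molecule, 740 and 0. None of these 7 genes had a cluster in either Flp-In list. NLGN1, a postsynaptic neuroligin, had 752 and 0 in SH-SY5Y cells, and 843 and 796 in the Flp-In WT and D262V lists. Their median scores in the WT list lay between 25 for NRG3 and 64.5 for GRM7.

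The genes with clusters only in D262V were led by CNTNAP2, a neurexin-related adhesion protein of axons, with 1492 clusters and a median score of 31.5 in D262V and 0 in WT (at least 538-fold higher). The noncoding LINC01414 had 372, the histone demethylase gene KDM4C 366 and the unconventional myosin gene MYO1D 328. ADAMTS19, a secreted metalloprotease, had 300, PTCHD4, a patched-related membrane protein, 287, RAPGEF4, an exchange factor driven by cyclic AMP, 219, and the noncoding LINC-PINT 193. All 8 had 0 clusters in WT. MYO1D, ADAMTS19, RAPGEF4 and LINC-PINT had clusters in both Flp-In lists, with 394 and 366 for MYO1D, and the other 4 had none there. For MYO1D, ADAMTS19, RAPGEF4 and LINC-PINT, the absence was thus from the SH-SY5Y WT list and not from the Flp-In WT list.

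Some genes had far fewer clusters in 1 list without being absent from it. KCNQ5, a neuronal potassium channel, had 497 clusters in WT and 51 in D262V, MCPH1, a microcephaly gene, 221 and 5, and ANKH, a pyrophosphate transporter, 149 and 1. The imprinted noncoding RNA MEG8 had 96 and 13. In the other direction the pseudogene DPY19L1P1 had 7 and 95 and MVP, the major vault protein, 2 and 19. These 6 were picked after their values were seen, from the 16 genes of both lists that passed the 2-fold limit.

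Of the 10 genes with most clusters in the WT list, 8 had nearly the same share in D262V. AUTS2, a regulator of neuronal development, had 1442 WT and 1364 D262V clusters, 92.4% of the latter shared, and LINGO2 had 1409 and 1318. MAGI2, a synaptic scaffold, had 1374 and 1403, GPC6 1325 and 1236, and NALF1, an auxiliary subunit of a sodium leak channel, 1315 and 1347. FHIT had 1230 and 1331, EXOC4, of the exocyst, 1210 and 1203, and CADM2 1203 and 1149. Scaled to list size, these 8 genes had ratios of D262V over WT of 1.01 to 1.17. The 2 others differed more. CCSER1 had 1407 and 1806 (ratio 1.39), and its median score was 45 in WT and 127 in D262V. GRM8, a metabotropic glutamate receptor, had 1192 and 843 (ratio 0.765), with median scores of 182.5 and 72. NALF1, EXOC4 and GRM8 also had high scores within the WT list, with medians of 360, 178 and 182.5 where the list's own median was 55.

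Among the 1371 genes with at least 100 clusters in each list, a class chosen after the values were seen, ratios ran from 0.536 to 1.54. The lowest pair overlapped on chromosome 7: LOC349160 with 250 and 124 clusters, and CHRM2 with 330 and 170. The median score of CHRM2 was 403.5 in WT and 86 in D262V, and 97.1% of its D262V clusters were shared, so the clusters left in D262V overlapped WT clusters. BMPR1B, a bone morphogenetic protein receptor, had 503 and 357, PDE4B, a cyclic AMP phosphodiesterase, 703 and 500, and HS6ST2, a heparan sulfate sulfotransferase, 327 and 233. At the other end were the noncoding PYDC2-AS1 with 187 and 267 and PRR16 with 231 and 327.

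HNRNPA1, the gene of the protein itself, was examined next, since hnRNPA1 binds its own transcript. It had 11 WT clusters, 9 of them shared, and 10 D262V clusters, 7 of them shared. Positions are hg38, plus strand, with starts read by the usual BED convention, which the files do not state. The WT-only clusters were chr12:54283505-54283703 with a score of 341 and chr12:54283675-54283782 with a score of 3. Both lay in the intron before the exon at chr12:54283811-54283966. In the Flp-In lists this intron held clusters in both WT (scores 652 and 641) and D262V (643). The D262V-only clusters were chr12:54283087-54283285 (score 107) and chr12:54283196-54283394 (score 85), which overlapped the optional exon at chr12:54283078-54283233, and chr12:54285110-54285254 (score 161). No WT or Flp-In cluster overlapped that optional exon. The highest scored clusters, at the 3′ end of the gene, were shared, with scores of 1187 in WT and 1196 in D262V.

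**Figure D3:**
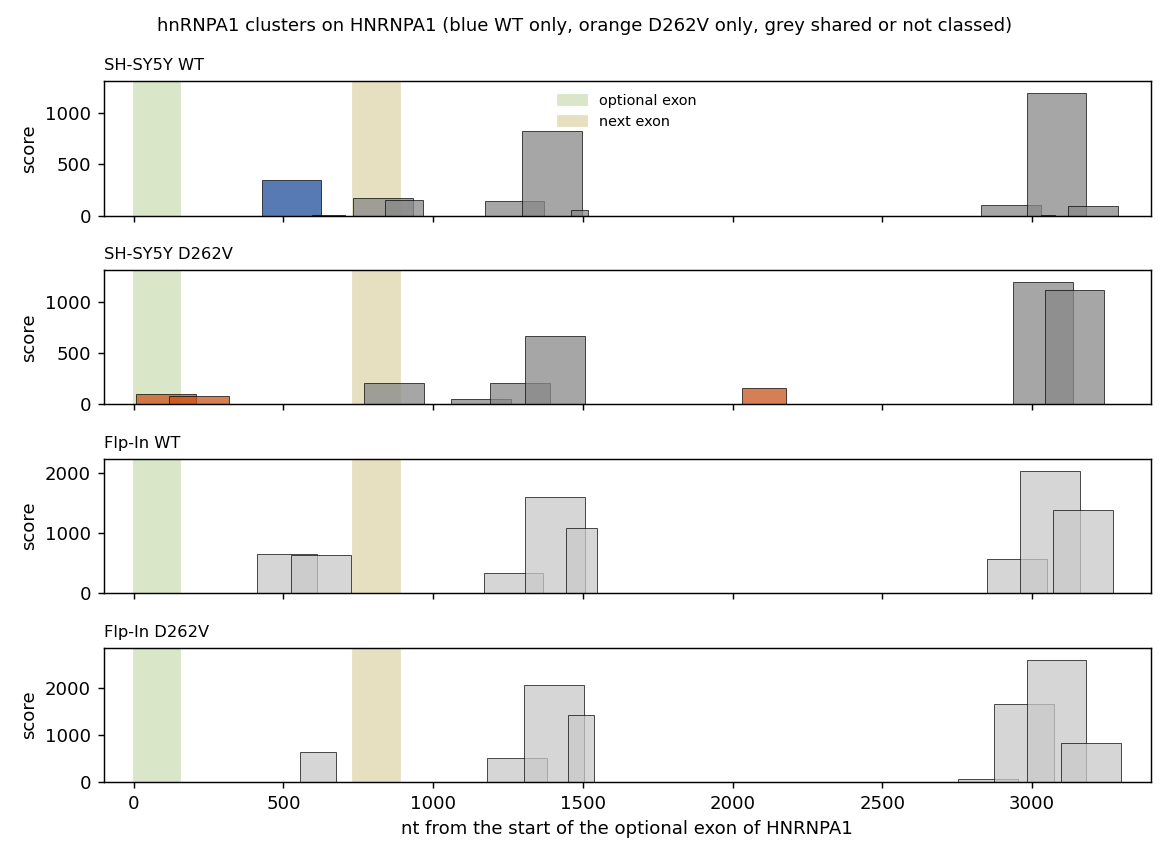
Clusters on HNRNPA1 in the 4 lists, by distance in nt from the start of the optional exon (x axis) and authors' score (y axis, own scale per list); shaded bands are the optional exon and the next exon. Of the 3 D262V-only clusters (orange), those with scores of 107 and 85 touch the optional exon and that with 161 does not, and the WT-only cluster with a score of 341 (blue) lies in the intron before the next exon, where both Flp-In lists have clusters.

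RNA from undifferentiated cells gave the use of that exon. Of the junction reads that entered or passed over the optional exon, the share entering it was 10.0%, 7.54% and 6.15% in the 3 WT libraries, from 861, 634 and 254 reads. It was 50.6%, 48.5% and 46.6% in the 3 homozygous D262V libraries, from 2528, 1593 and 1564 reads. The groups did not overlap, at 7.90% ± 1.96 and 48.5% ± 1.98 (SD, n = 3 each). An exact permutation test of 3 against 3 libraries cannot give a two-sided p below 0.10. A junction from the optional exon that passed over the next exon had 0 reads in every WT library and 3745, 2505 and 2590 in the D262V libraries. In each D262V library this junction alone had more reads than entered the optional exon, so the share of use depends on the side counted. The junction that joined the optional exon to the next exon had 827, 900 and 284 reads in WT and 325, 242 and 391 in D262V libraries. Of the 3 D262V-only clusters, 1 lay mostly in this exon and 1 at its end, reaching into the intron behind it, and the highest scored, with 161, lay outside it. The relation between these clusters and the use of the exon was not tested.

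MALAT1, an abundant nuclear noncoding RNA, carried the highest scores of both lists. It had 23 WT clusters, all shared, and 25 D262V clusters, 22 of them shared. The top cluster scored 461858 in WT and 475729 in D262V, and MALAT1 held 3.36% of the summed score of the WT list and 4.67% of that of the D262V list. The 3 D262V-only clusters lay side by side at chr11:65504602-65504800, chr11:65504719-65504917 and chr11:65504849-65505047, with scores of 3168, 64363 and 4675. They were the 3 highest scored of all D262V-only clusters. Flp-In WT cells had clusters at the same place, with scores of 653, 13211 and 987, and Flp-In D262V cells had none there. The presence of these clusters therefore did not follow the substitution in both lines.

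**Figure D4:**
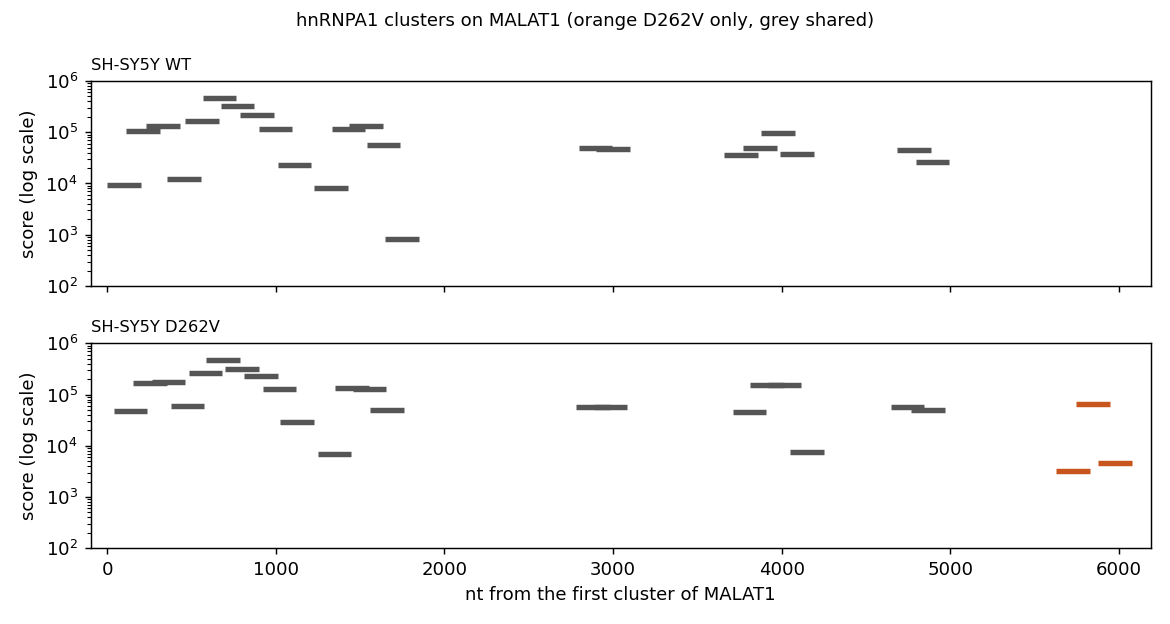
Clusters on MALAT1 in the SH-SY5Y WT list (top) and D262V list (bottom), by distance in nt from the first cluster (x axis) and authors' score on a log scale (y axis); each bar spans 1 cluster. All 23 WT clusters and 22 of 25 D262V clusters are shared (grey), and the 3 D262V-only clusters (orange) form 1 group at the 3′ side with scores of 3168, 64363 and 4675.

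A single cluster in HTT, the huntingtin gene, at chr4:3158771-3158821 and 51 nt wide, scored 123651 in WT and 182102 in D262V and was present in all 4 lists. NEAT1, the scaffold RNA of paraspeckles, had 33 WT clusters, 5 of them WT only with scores of 216 to 717. It had 29 D262V clusters, and the pair that was D262V only scored 7 and 3. Outside MALAT1, the highest scored D262V-only clusters lay in PTCHD4 (1112 and 936), LLGL2 (777), the microRNA host gene MIR137HG (753) and DCX (742). The highest WT-only clusters outside GRM7 lay in PLA2G4E (1729), in regions listed under the small nucleolar RNA names SNORA15B-1 and SNORA15B-2 on chromosome 7 (1478) and in CNTN4 (1458).

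Gene families with a role in splicing were held by both lists. Of 27 hnRNP family genes, 25 were in both, and none of the 22 with at least 20 clusters passed the 2-fold limit in either direction, beside 3.98% and 1.45% of all genes. HNRNPC had 82 WT and 72 D262V clusters, HNRNPA2B1 29 and 34 and HNRNPD 31 and 28. PTBP1, a repressor of neuronal exons, had 8 and 0. Of 23 genes for SR proteins and core spliceosome, 19 were in both lists and none of 14 passed, with scaled ratios of 0.683 for DDX5 (19 and 12) to 1.72 for SNRPN (39 and 62). Of 24 neural splicing regulators, 18 were in both, among them ELAVL4 (210 and 201), PTBP2 (139 and 130) and NOVA1 (117 and 132). ELAVL2, a neuronal Hu protein, was the 1 of 19 that passed, with 127 and 0.

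All 18 stress granule components were in both lists and none passed the limit, with a median ratio of 1.02. Over all genes 3.98% were lower and 1.45% higher, so the absence of calls in lists of this size is near the share over all genes. G3BP1, which nucleates stress granules, had 43 and 43 clusters. Of 37 ALS and frontotemporal dementia genes, 25 were in both and none of 20 passed, including STMN2 (123 and 118), ATXN2 (138 and 127) and UNC13A (65 and 63). CCNF, a cyclin, had 13 and 0. Of 23 genes with splicing known to be regulated by hnRNPA1, 16 were in both and none of 15 passed, with APP at 281 and 257 and PKM at 34 and 27.

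Axon and synapse genes held most of the changes among these gene lists. List members were chosen with earlier results of these data known. CNTN4, NRG1, NRG3, NLGN1 and CNTNAP2 are also among the extreme ratios named above, so the counts here are no measure of the class. Of the 34 axon and synapse genes, 15 were in both lists, 5 in the WT list only and 2 in the D262V list only. Thus 5 of 22 with at least 20 clusters were lower and 2 higher, beside 3.98% and 1.45% of all genes. The 5 were CNTN4, NRG1, NRG3, NLGN1 and KIF1A, a kinesin of synaptic vesicles with 39 and 0, and the 2 were CNTNAP2 and DCX, the doublecortin gene of migrating neurons with 0 and 97. ROBO2 (943 and 1029) and CTNNA2 (1117 and 1125), genes of like length, were in both lists. Among 14 nuclear and imprinted noncoding RNAs, 11 were in both and 1 of 9, MEG8, was lower, beside the same 3.98%. The list medians over genes in both were 0.971 for hnRNP genes, 1.08 for axon and synapse genes and 1.02 for noncoding RNAs, against 1.05 for all genes.

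The lists carried the identity of the cells. Noradrenergic identity genes were in both SH-SY5Y lists for 14 of 16 members, among them PHOX2A, GATA3, DBH and ALK, whereas 2 of 16 were in each Flp-In list. ALK, a receptor kinase active in neuroblastoma, had 1173 WT and 1012 D262V clusters. Mesenchymal markers were in the SH-SY5Y lists for 1 of 12 (TWIST1), and renal markers for 1 of 7 (EYA1). Schwann and glial markers were present for 1 of 7 in WT and 2 of 7 in D262V, and SOX10 had 0. None of the 10 noradrenergic genes with at least 20 clusters passed the 2-fold limit, beside 3.98% lower and 1.45% higher over all genes. The absence of calls in a list of this size is near the share over all genes. Among the 10, DBH had the lowest ratio (30 and 17, ratio 0.613).

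Cluster lists were then set beside RNA, since a gene with less RNA offers fewer crosslinks. Junction reads were summed per gene over the junctions the authors listed and tested with edgeR's quasi-likelihood test. Of 4716 genes, 224 were higher (4.75%) and 286 lower (6.06%) in homozygous D262V cells at an adjusted p of 0.05. Without homozygous D262V replicate 3 the counts were 119 and 168, the lowest total among the fits that left out 1 library. Without WT replicate 2 they were 155 and 184, and without homozygous D262V replicate 1 or 2 they were 128 and 182, and 114 and 176. Junctions come from splicing events the authors had selected, and the event lists carry a p-value of 0.05 in their names. The 4716 genes are thus not all expressed genes, and a sum can also move with junction use. Fewer cells of a type and less RNA per cell cannot be told apart. The labels do not say that libraries came from separate cultures.

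Genes missing from the D262V list tended to have less RNA in D262V cells. Of the 69 genes of the WT list only with an RNA test, 56 (81.2%) had a negative log2 fold change, with a median of -0.48, compared with 1625 of 3128 genes of both lists (52.0%, median -0.02). Among the 69, 8 fell (11.6%) and 2 rose (2.90%). Without homozygous D262V replicate 2 these were 2 and 1, and 4 fell without D262V replicate 1, D262V replicate 3 or WT replicate 2, and 5 without WT replicate 1. Among the 3128 genes of both lists, 197 fell (6.30%) and 137 rose (4.38%). Without 1 of the 3 homozygous D262V libraries, 119 to 128 fell and 70 to 76 rose, and without WT replicate 2, 127 and 91. For the 33 genes of the D262V list only, the median was -0.02, with 1 higher and 2 lower. By the deposited gene counts, 58 of 112 genes of the WT list only (51.8%, median -0.04) were negative, so the lower RNA was seen in junction reads and not in gene counts. In the gene count table the row for reads in no gene held 95.7% to 95.9% of each library. Reads in genes (3.62 to 6.85 M) were fewer than the summed junction reads (4.66 to 8.75 M) in every library. Genes of the WT list only had a median of 19.5 CPM (junction reads scaled to the library total) in WT cells, and genes of both lists 55.6.

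**Figure D5:**
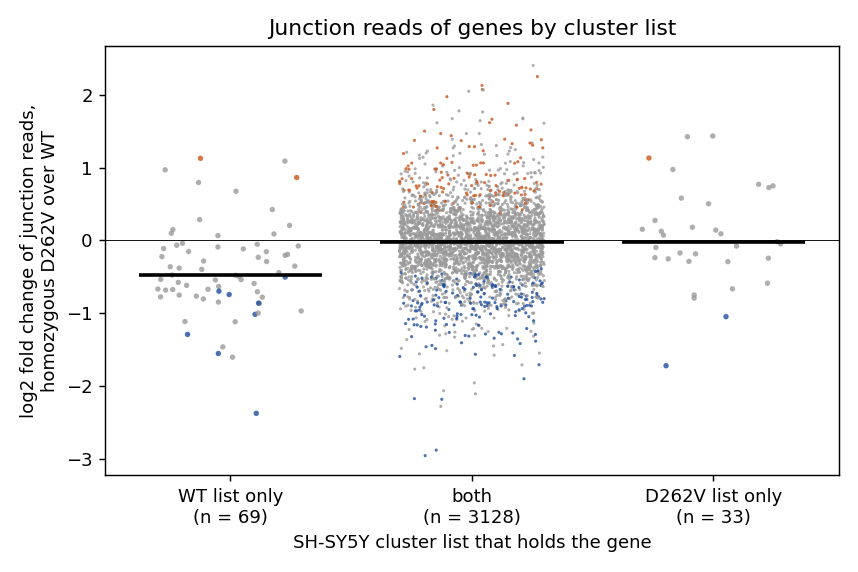
Log2 fold change of junction reads in homozygous D262V over WT cells (y axis) for genes of the WT cluster list only, both lists and the D262V list only (x axis); each point is a gene, black bars are medians, and blue and orange points fell and rose at an adjusted p of 0.05 (edgeR). The median of the WT-list genes is -0.48, and the others are at -0.02.

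CNTN4 had no cluster in the D262V list and fewer junction reads in D262V cells. Its junction CPM was 90.5, 78.8 and 67.7 in WT and 25.04, 29.4 and 26.6 in homozygous D262V libraries, with no overlap. The log2 fold change was -1.55 (SE 0.25, adjusted p = 1.96e-04, edgeR). GRIA2, an AMPA receptor subunit with 143 and 0 clusters, had 76.9, 59.8 and 31.9 CPM in WT and 38.4, 19.7 and 25.3 in D262V libraries (log2 fold change -1.01, SE 0.33, adjusted p = 0.0491 by edgeR). The GRIA2 groups overlapped, and the call was lost in 4 of the 6 fits that left out 1 library (adjusted p of 0.251 without WT replicate 1, 0.156 without WT replicate 2, and 0.225 and 0.166 without D262V replicate 2 or 3). GALNT14, a glycosyltransferase with 151 and 0 clusters, had -1.29 (SE 0.37, adjusted p = 0.0246), which was lost in 4 of these fits, without WT replicate 2 or any 1 of the D262V libraries (adjusted p of 0.0564 to 0.119). The proliferation gene MYBL2 had -0.86 (SE 0.17, adjusted p = 0.00120, edgeR), and like CNTN4 it passed in all 6 of these fits. By gene counts MYBL2 did not pass (-1.33, adjusted p = 0.176, edgeR). No gene count result is given for CNTN4. It passed in the 10 alternative settings where it had a value, while MYBL2 had a value in 11. FANCD2, of the Fanconi DNA repair pathway, CTSC, a lysosomal protease, ACOT7 and ZNF90 also fell with all 6 libraries. The FANCD2 call was lost without D262V replicate 2 (adjusted p = 0.0588). That of CTSC was lost in 4 fits, without WT replicate 1 or 3 or D262V replicate 1 or 2 (0.0544 to 0.156), and that of ACOT7 in 4, without WT replicate 2 or any 1 of the D262V libraries (0.0559 to 0.107). The ZNF90 call was lost in 5, in all but the fit without WT replicate 3 (0.0504 to 0.123), and by gene counts (0.733).

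Other genes of the WT list only rose. GAK, a kinase of clathrin uncoating with 41 and 0 clusters, had 49.9, 53.9 and 34.3 CPM in WT and 86.9, 102.4 and 113 in D262V libraries, a log2 fold change of 1.13 (SE 0.23, adjusted p = 0.00182, edgeR). BCR rose by 0.86 (SE 0.21, adjusted p = 0.00808), with 72 and 0 clusters, but did not pass without D262V replicate 2 or 3 (0.0579 and 0.0722). Among genes of the D262V list only, SLC35D2, a nucleotide sugar transporter with 0 and 49 clusters, rose by 1.13 (SE 0.23, adjusted p = 0.00221). SLC1A1, a glutamate transporter with 0 and 80 clusters, fell by 1.72 (SE 0.49, adjusted p = 0.0233), a call lost in 4 fits, without WT replicate 2 or any 1 of the D262V libraries (0.0682 to 0.155). KDM4C had a log2 fold change of 0.75 (SE 0.28, adjusted p = 0.0901), PTCHD4 1.43 (adjusted p = 0.443) and RAPGEF4 -0.59 (adjusted p = 0.403). GRM7, NRG1, NRG3, EPHA6, ADGRL3, NLGN1, NEGR1 and CNTNAP2 had no RNA test. By gene counts ACOT7 and SLC1A1 had the opposite sign (0.30 and 0.84), and GAK and BCR did not pass (0.23 and 0.24). In the Flp-In lists GAK and BCR went the other way, with 0 clusters in WT and 35 and 79 in D262V.

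Within genes of both lists the number of clusters hardly followed RNA. Across 3128 genes the log2 ratio of cluster shares and the log2 fold change of junction reads had a Pearson correlation of 0.08 and a Spearman correlation of 0.10, given as a description since genes are not replicates. The median ratio of cluster shares was 1.01 for the 197 genes with lower RNA, 1.05 for the 137 with higher RNA and 1.05 for the 2794 others. HS6ST2 and PYDC2-AS1 moved the same way in both measures. HS6ST2 RNA fell by 1.38 on the log2 scale (SE 0.33, adjusted p = 0.00768), and PYDC2-AS1 RNA, listed under an older symbol in the junction table, rose by 2.07 (SE 0.19, adjusted p = 2.05e-07). AUTS2 RNA rose by 0.71 (SE 0.17, adjusted p = 0.00919) and FHIT RNA by 1.58 (SE 0.46, adjusted p = 0.0265), with scaled cluster ratios of 1.02 and 1.17. The HS6ST2 call was lost without WT replicate 1 or D262V replicate 1 (adjusted p = 0.0642 and 0.0551, edgeR) and the AUTS2 call without D262V replicate 3 (0.0868) and by gene counts (0.811). The FHIT call was lost in 4 fits, without WT replicate 2 or 3 or D262V replicate 2 or 3 (0.0508 to 0.220), and the PYDC2-AS1 call in none of the 6.

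RNA of the hnRNP genes was lower while, among those with at least 20 clusters, none passed the 2-fold limit on clusters. Of 15 with an RNA test, 11 fell and 0 rose, beside 6.06% and 4.75% of all 4716 genes tested, with a median log2 fold change of -0.55. HNRNPA1 had 4166, 4675 and 3344 CPM in WT and 2327, 2304 and 2136 in D262V libraries, with no overlap (log2 fold change -0.85, SE 0.12, adjusted p = 8.13e-05, edgeR). HNRNPM fell by 0.89, HNRNPDL by 0.85, HNRNPH3 by 0.75 and HNRNPA2B1 by 0.63, while HNRNPD (-0.27, adjusted p = 0.269) and HNRNPK (-0.36, adjusted p = 0.0547) did not pass. By gene counts, 0 of 23 hnRNP genes fell at the same limit in edgeR, with 13 of 23 negative, and HNRNPA1 had a log2 fold change of -0.28. The optional exon and its junctions enter the HNRNPA1 junction sum. Without homozygous D262V replicate 2 or 3, 7 and 6 of the 15 fell by junction reads. PTBP1, with 8 and 0 clusters and so below the minimum of 20, was among the 11 (log2 fold change -0.50, SE 0.14, adjusted p = 0.0221, edgeR). ELAVL4 RNA rose by 0.90, with 210 and 201 clusters. Of 11 noradrenergic identity genes with an RNA test, 2 rose and 3 fell at the same limit in edgeR. Over all 4716 genes tested, 4.75% rose and 6.06% fell. RET (log2 fold change 1.61, with 41 and 37 clusters) and GATA2 (0.66) rose, and SLC6A2 (-2.18), CHGB (-1.16) and DDC (-1.02) fell. For these noradrenergic genes, fits with 1 library left out and gene counts are not given here.

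Cassette exons, which are either included or skipped, were set beside the clusters last. Of 1269 cassette exons in the authors' deposited table for undifferentiated cells with at least 20 reads in every library, 86 (6.78%) had an adjusted p under 0.05, a change in junction usage of at least 10 percentage points and groups without overlap. A cluster lay in the exon or within 300 nt of it for 28 of the 86 (32.6%) and for 442 of the other 1183 (37.4%). A WT-only cluster was near 3 changed exons (3.49%) and 66 others (5.58%), and a D262V-only cluster near 6 (6.98%) and 67 (5.66%). In total 9 changed exons (10.5%) and 130 others (11.0%) had an unshared cluster nearby, so these shares were close, and the difference was not tested. The authors' exon list carries a p-value of 0.05 in its name, so the other 1183 exons cannot be taken as unchanged. Changed exons with a WT-only cluster were in SAC3D1, NRDE2 and STIM2, a calcium sensor of the endoplasmic reticulum. Those with a D262V-only cluster were in METTL22, CNNM4, PARP8, C5orf42, MCUR1 and OCRL. NRDE2 and STIM2 were genes of the WT list only, and CNNM4 of the D262V list only. Their unshared clusters were thus part of the absence of the whole gene from the other list.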

How the data were processed

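Members and gene lists were chosen with earlier results of these data known. The irCLIP files are the authors' deposited cluster lists, 1 per group of 3 pooled samples, with a whole-number score per cluster and no depth. Repeated lines (3.14% of WT, 3.08% of D262V) were dropped. Gene names from the lists were kept where the cluster lay on that gene's RefSeq span and strand (GRCh38.p14), because names of multi-copy genes covered very long regions; 99.5% of clusters in each list kept a gene. This departs from taking the names as listed, which is given as an alternative. The strand is missing for some RefSeq genes, and then the span alone was used.

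The authors' deposited splicing tables give read counts per junction, usage as a percent, and a p-value with its adjusted p-value. STAR 2.5.3a, Cufflinks, HTSeq and DESeq2 are named in the submitters' processing notes, with the build hg38. No source used here names the cluster caller or its filters. Distinct junctions were summed per gene (4.66 to 8.75 M reads per library) and tested with edgeR 4.0.16 (R 4.3.3) by its quasi-likelihood test after filterByExpr and TMM, and p-values were adjusted by Benjamini and Hochberg's method; the fit was checked on simulated counts. DESeq2 1.42.0 and the deposited gene counts were alternatives. Junction reads were used for the main test because the deposited gene counts lay below the reads of single junctions of the same gene. The row for reads in no gene was left out. Every per-sample column used had a matching label.

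Genes were named by rule: HNRNPA1, the 10 with most WT clusters, the 8 lowest and 8 highest ratios among genes with at least 50 clusters, the 10 highest scored clusters of each class, and list members. Genes of 1 list that passed the RNA test, and others marked in the text, were picked after their values were seen. A few genes are not reported here.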

Additional observations from a re-analysis of the deposited data

How the results depend on the processing

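Sharing of WT clusters was 82.4% when the overlap had to reach 50% of the shorter cluster, 86.4% with gaps of up to 50 nt, 85.3% among the 100000 highest scored clusters, 85.4% among clusters at or above the median score and 83.0% after merging clusters less than 50 nt apart. For D262V clusters the same settings gave 87.4%, 90.9%, 84.9%, 90.5% and 88.1%, so the order of the lists turned among the highest scored clusters. Genes lower and higher in D262V numbered 164 and 52 when at least 50 clusters were asked for, since fewer genes entered, and 100 and 57 among the 100000 highest scored clusters, of which only 16 and 3 had no cluster in the other list. The 4 other settings, among them the gene names as listed (308 and 125, chosen after seeing the data), stayed within 1.5 times. Genes changed by junction reads ranged from 287 to 617 when 1 library was left out. The replicate numbers did not pair the libraries (same-number correlations 0.0025, 0.030 and 0.024), and with a replicate block 497 genes changed instead of 510. Added after seeing the data, the share of WT-list genes with lower junction reads was 75.4% to 82.6% with 1 library left out and 51.8% by gene counts. For genes of both lists it was 50.0% to 52.0% and 47.1%. Within a 100 nt window 20.9% of changed exons had a cluster. By gene counts ACOT7 and SLC1A1 reversed (0.30 and 0.84). Cluster lists give no depth, so a gene at 0 may have fallen below the authors' limit; the cause of these shifts was not tested.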
